A study of Mus musculus with 2 samples.

Results

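Solute carriers are membrane proteins that move amino acids, sugars, ions, vitamins and metabolites across the plasma membrane or between the compartments of a cell. Their genes are named Slc, followed by a family number and a member. The genes described here are those whose name on the array begins with Slc and a number, without Slc40a1, Slc11a1 and Slc4a1. The array carried 323 such genes on 525 probes, and 124 of them were measured, of 9954 genes measured in all. A gene counted as measured where 1 of the 2 colour channels was well above background on both arrays. The brightest such probe stood for the gene. Of the 124 names, 4 belong to genes that are not carriers themselves but are named after one.

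CD8+ T cells were isolated by negative selection, at over 90% purity per the labels, from 2 kinds of infected mice. The mice were Bcl11bF/F/dLck-iCre or wild type. Both groups had been given Listeria monocytogenes-OVA, a bacterium that expresses ovalbumin, and cells were taken on day 6. In the former the iCre recombinase, driven by the distal Lck promoter, acts on floxed Bcl11b in T cells, and their cells are called deficient here. Bcl11b encodes a zinc-finger transcription factor of the T lineage. The age of the mice, the number of mice per sample and the controls' floxed or Cre status beyond "wild type" are not given in the sources used here. Each of 2 biological replicates was 1 array, with deficient RNA in Cy5 and wild-type RNA in Cy3. Dyes were not swapped, so a dye effect on a gene and an effect of genotype cannot be told apart.

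Activated T cells are known to raise carriers for glucose, glutamine, large neutral amino acids and lactate. Several light chains of the Slc7 family reach the cell surface only when bound to the heavy chain that Slc3a2 encodes. Ion carriers of the Slc12 family move potassium with chloride and help to set cell volume. Phagocytes are known for other carriers, among them those of the lysosome and of iron handling.

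Values are log2 ratios of deficient over wild type, given for each array and as the mean ± SD (n = 2), so that 1 stands for a 2-fold higher signal in deficient cells. A gene was called where limma's adjusted p lay under 0.05. The fit gave every gene the same standard error of 0.42, and a call therefore meant a mean of at least 1.18 in either direction. Between 28.9% and 32.4% of gene spots were well above background in the wild-type channel, and between 26.0% and 31.1% in the deficient channel. The targeted gene, Bcl11b, stood at -0.69 and -2.95 (mean -1.82 ± 1.60, limma adjusted p = 6.59e-04), and whether its probe lies in the deleted part is not given in the sources used here. Of 16 measured CD8 T-cell markers, 7 were called lower in deficient cells (median -1.14), and their summed signal was 221750 to 256800 in wild-type and 89375 to 125575 in deficient cells. All 21 measured macrophage markers of 24 on the array were higher (median 2.38), with a summed signal of 40926 to 56803 in wild-type and 328167 to 331854 in deficient cells. This list includes the carriers Slc40a1 (2.96 ± 0.62) and Slc11a1 (1.71 ± 1.36). Mrc1, Axl and Mertk were not measured. Of the other lists, 7 of 10 B-cell, 4 of 7 erythroid, 3 of 9 neutrophil, 3 of 5 dendritic cell, 3 of 8 NK-cell and 1 of 4 plasma cell markers were higher, and 1 plasma cell marker was lower. Fewer T cells and less RNA per T cell cannot be told apart in these bulk samples. The part of the marker shifts in the results below was not tested.

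Most carriers lay close to 0, and a small set stood out in each direction. Limma called 5 of 124 members higher (4.03%) and 9 lower (7.26%), against 3.65% higher and 5.94% lower over all genes tested. Together, 14 members were called (11.3%), against 9.58% of all genes, so the share of calls was near the background. The counts of calls by group below stand against these shares. With median centring in place of loess the split was 1 higher and 4 lower, with the scanner program's own ratios 1 and 2. Without a filter on dim probes, or with the channels fitted separately, limma called 0 members in either direction (29 higher and 29 lower, and 9 and 15, at unadjusted p under 0.05), so each call below rests on the processing as given. The median of the members was -0.02, with -0.07 on replicate 1 and 0.11 on replicate 2, and that of all genes was -0.12. For 67 members the mean lay within 0.5 of 0 (54.0%), against 54.1% of all genes. The arrays gave the same sign for 96 members (77.4%; 74.0% of all genes). The spread across members was wider on replicate 1 (SD 0.96) than on replicate 2 (SD 0.66).

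**Figure D1:**
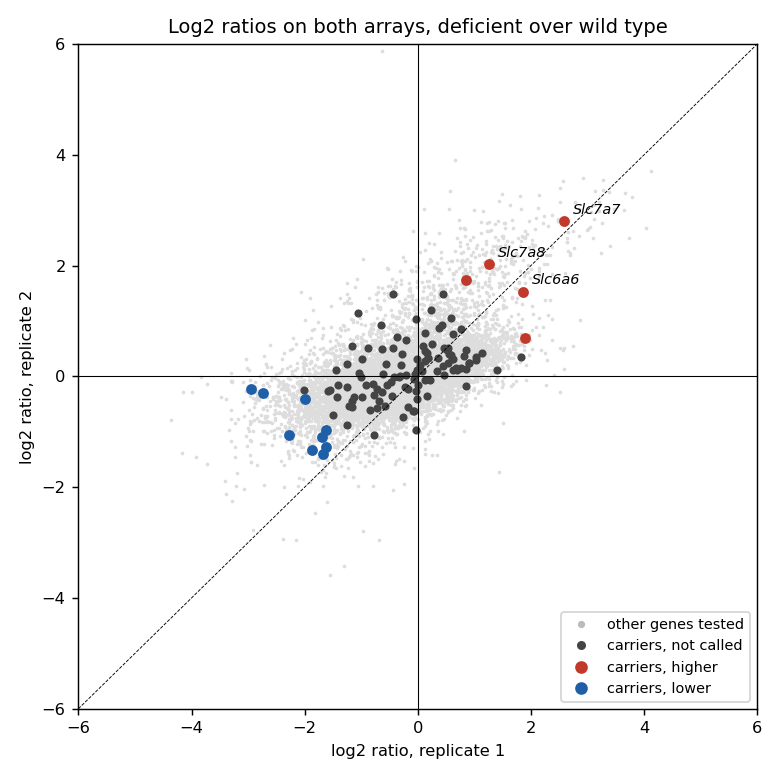
Log2 ratios of deficient over wild type on replicate 1 (x axis) and replicate 2 (y axis) for all 9954 genes tested (pale points), with the 124 solute carrier genes on top (dark where not called, red where higher, blue where lower). Slc7a7 lies at 2.58 and 2.80, and Slc7a8 at 1.25 and 2.03, around the dashed line of equal ratios.

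The called direction went with the channel that could be measured. Both channels were well above background on both arrays for 66 members. Of these, 4 were higher (6.06%; 5.51% of 5752 such genes overall) and 1 was lower (1.52%; 1.32% overall). The other 8 lower members lacked a deficient signal well above background on 1 array (4 genes) or on both (4 genes). Genes of both classes passed the filter through wild-type cells alone. Of the latter class, all 12 members lay below 0 on both arrays, as did 700 of 701 such genes overall. Of the former class, 17 of 28 members lay below 0 on both arrays and 0 above, against 1638 and 2 of 2416 such genes. Limma called 4 of the 28 lower and 0 higher, and 314 and 0 of the 2416. In the same way, 13 members were measured in deficient cells alone, and all 13 lay above 0, as did 582 of 592 such genes. These directions, and the side of those calls, follow from the filter and are no separate result.

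Amino acid carriers held the largest rise. Of 16 measured members of this group, 3 were higher and 2 lower, and their median was 0.11. Slc7a7 encodes the light chain y+LAT1, which pairs with the Slc3a2 product and exchanges cationic for neutral amino acids. Its log2 signal was 11.98 and 11.77 in deficient cells and 9.40 and 8.97 in wild-type cells on replicates 1 and 2. Deficient cells were above wild type on both arrays, by 2.58 and 2.80, and the groups' signals did not overlap. The lack of overlap held for every called member and sets none apart, and its share over all genes was not counted. The mean of 2.69 ± 0.15 corresponds to 6.45-fold (limma adjusted p = 3.63e-08). The probe (NM_011405) lies on chromosome 14 from 53324534 to 53324593 of build NCBI36 (mm8), and exons were not assigned. It was higher at 2.08 to 3.07 over 12 alternative ways of processing and passed in 10 of them.

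Slc7a8 encodes LAT2, another light chain of the same heavy chain, which carries neutral amino acids. Its log2 signal was 10.02 and 10.62 in deficient cells, and 8.77 and 8.59 in wild-type cells, where neither array showed it well above background. Slc7a8 was thus measured in deficient cells alone, and its direction follows from the filter, as stated above. The ratio was 1.25 and 2.03, and the signal was at least 3.11-fold higher in deficient cells (limma adjusted p = 0.00284). Such a bound sets the brighter group against the higher of the probe's own signal and the lowest signal well above background. For each gene given a bound here, the probe's own signal was the higher, so the bound equals the plain fold. It is no confidence limit and holds for this processing only. Without background correction the log2 ratios were 1.14 for Slc7a8, -0.89 for Slc43a2 and -0.79 for Slc6a19. Slc6a6, the taurine transporter, had a log2 signal of 12.27 and 12.34 in deficient and 10.41 and 10.81 in wild-type cells. The ratios of 1.86 and 1.53 gave a mean of 1.69 ± 0.23, or 3.24-fold (adjusted p = 0.00192).

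The probes of Slc7a7 and Slc7a8 lie 352 kb apart on chromosome 14 (mm8). In assembly GRCm38.p6, 15 protein-coding genes separate them. Of these, 9 were measured and 0 were called higher and 0 lower by limma, with means from -0.73 for 1700123O20Rik to 0.74 for Mmp14, and 0 of the 9 at an unadjusted p under 0.05. The promoters of both genes are shown because both genes, of 1 family and 1 chromosome region, were higher. For Slc7a8 that direction follows from the filter, so the pair is no separate result. Each sequence is the 250 bases before the most upstream start in RefSeq's table (GRCm38.p6), read along the gene, which lies on the minus strand. That of Slc7a7 is chr14:54417945-54418194 and that of Slc7a8 chr14:54781887-54782136. Capitals mark matches, on either strand, to a PU.1-type ETS motif (GAGGAAG), an E-box (CACGTG), a Runx motif (TGTGGT) or an Sp1 GC box (GGGCGG). No searched motif overlaps another here.
Slc7a7: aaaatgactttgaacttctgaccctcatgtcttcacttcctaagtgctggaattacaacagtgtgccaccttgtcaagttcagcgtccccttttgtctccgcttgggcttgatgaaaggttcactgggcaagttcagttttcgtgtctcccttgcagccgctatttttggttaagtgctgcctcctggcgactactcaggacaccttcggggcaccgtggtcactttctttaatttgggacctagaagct
Slc7a8: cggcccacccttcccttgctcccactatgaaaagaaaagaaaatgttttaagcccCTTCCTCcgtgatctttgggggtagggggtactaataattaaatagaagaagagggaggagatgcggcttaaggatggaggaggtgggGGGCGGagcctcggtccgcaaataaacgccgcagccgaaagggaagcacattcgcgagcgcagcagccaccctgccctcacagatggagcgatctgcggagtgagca
The Slc7a8 window holds 1 ETS match and 1 GC box, and none of the 4 motifs occurs in the Slc7a7 window. Over the same window of 27025 promoters, 10.4% hold the ETS motif, 6.04% the E-box, 14.2% the Runx motif and 33% the GC box. Of the 124 measured members, 93 had an entry, and 9.68%, 15.1%, 12.9% and 60.2% of these hold the respective motif. A match describes letters and does not show binding.

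The lower amino acid carriers were Slc43a2 and Slc6a19, both without a deficient signal well above background on either array. Slc43a2 encodes LAT4, which lets large neutral amino acids pass without a partner chain. Its log2 signal was 10.19 and 9.99 in wild-type and 8.32 and 8.67 in deficient cells, so the wild-type signal was at least 3.03-fold higher (adjusted p = 0.00374). Slc6a19 encodes B0AT1, known as the neutral amino acid carrier of kidney and intestine. Wild-type cells had 9.17 and 9.28 against 7.49 and 7.89, a difference of at least 2.91-fold (adjusted p = 0.00577). The direction of a gene measured in wild-type cells alone follows from the filter, as stated above. The other measured members of the Slc6 family were Slc6a9 (0.18 ± 0.75), Slc6a17 (0.57 ± 0.47), Slc6a7 (0.69 ± 0.48) and Slc6a11 (0.75 ± 0.92), which were not called.

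**Figure D2:**
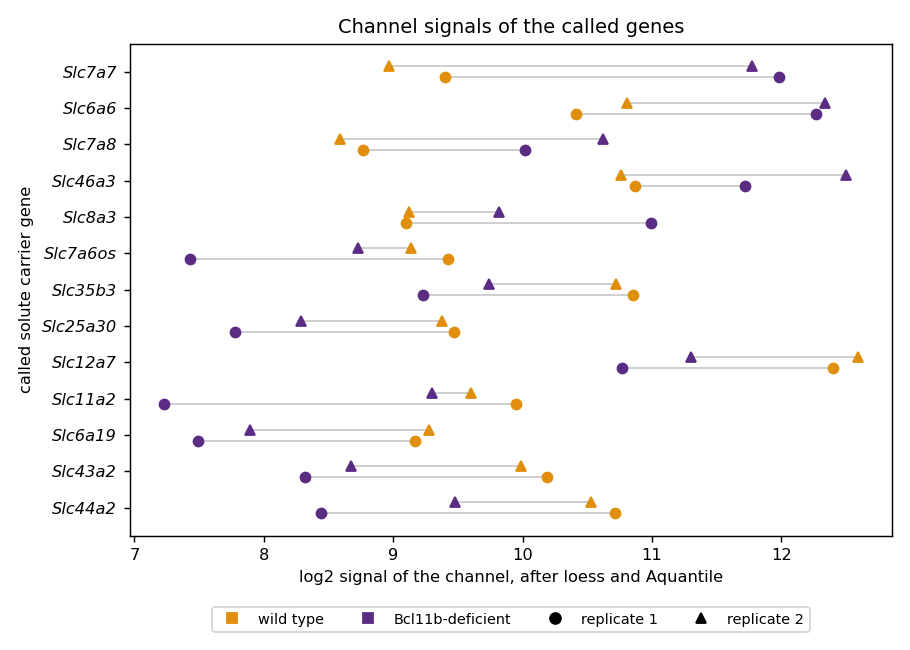
Log2 signal of each channel after loess and Aquantile normalization (x axis) for 13 of the 14 called genes (y axis), with wild type in orange, deficient in purple, circles for replicate 1 and triangles for replicate 2. The groups overlap for none of the genes drawn, which sets none apart, and the share over all genes was not counted. Slc11a2 owes most of its distance to replicate 1, with a deficient signal of 7.23.

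The heavy chain Slc3a2, the partner that Slc7a7 and Slc7a8 share, did not pass (0.59 and 0.39, mean 0.49 ± 0.14, adjusted p = 0.513; -0.40 with median centring in place of loess). It belongs to a list of 17 carriers of activated T cells, of which 13 were measured. Limma called 0 of the 13 higher and 1 lower, against 3.65% and 5.94% of all genes. At an unadjusted p under 0.05 these counts were 0 and 3, against 7 and 18 of the 124 members. The 1 called, Slc12a7, is a potassium chloride cotransporter rather than a carrier of nutrients. The median of the list was -0.49, against -0.12 for all genes. The glucose carrier Slc2a1 (GLUT1) stood at 0.01 and -0.16, a mean of -0.08 ± 0.12. Slc2a3 (GLUT3) stood at -1.59 and -0.27 (mean -0.93 ± 0.94, adjusted p = 0.155), with a deficient signal well above background on 1 of 2 arrays. The glutamine carrier Slc1a5 (ASCT2) was below 0 on both arrays, at -1.13 and -0.38 (mean -0.76 ± 0.53, adjusted p = 0.272).

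Slc38a2 (SNAT2), a sodium-coupled carrier of small neutral amino acids, was at -1.17 and -0.45 (mean -0.81 ± 0.51), and its relative Slc38a1 (SNAT1) at 0.16 and -0.36 (mean -0.10 ± 0.37). Slc7a6, which encodes y+LAT2, had no deficient signal well above background, and the wild-type signal was at least 1.28-fold higher. The direction of Slc7a6 follows from the filter. The reduced folate carrier Slc19a1 was at -0.78 and -1.06 (mean -0.92 ± 0.20, adjusted p = 0.157). The phosphate carrier Slc20a1 was at -0.58 and -0.54 (mean -0.56 ± 0.03). A second Slc20a1 probe, with both channels well above background on both arrays, gave 0.77 and -0.10 (mean 0.34). The nucleoside carrier Slc29a1 (ENT1) was at -1.04 and 0.07 (mean -0.49 ± 0.78). Of the monocarboxylate carriers, which move lactate, Slc16a1 (MCT1) stood at 0.85 and -0.17 (mean 0.34 ± 0.72; -0.25 with median centring and -0.73 as the mean of its probes), and Slc16a3 (MCT4) at 0.43 and 0.92 (mean 0.68 ± 0.35). None of these passed in limma as fitted here, while Slc19a1 passed with a filter on both channels (adjusted p = 0.0274). Slc7a5, Slc7a1, Slc43a1 and Slc39a10 were not measured on these arrays. A p that misses the threshold does not show equal levels, since no mean below 1.18 could be called with an error of 0.42.

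**Figure D3:**
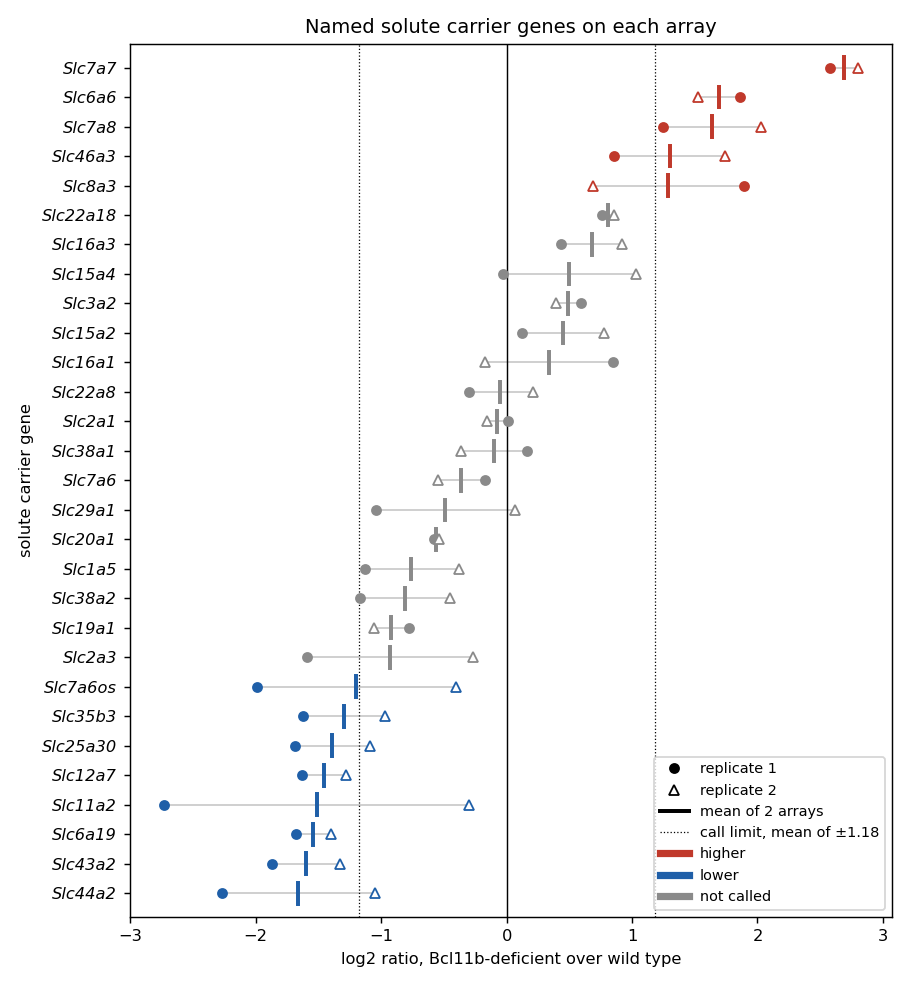
Log2 ratio of deficient over wild type (x axis) for 29 genes (y axis), with circles for replicate 1, triangles for replicate 2, a bar for the mean and dotted lines at a mean of 1.18 in either direction. Of the listed carriers of activated T cells, the ion cotransporter Slc12a7 alone lies past the limit, and Slc2a1 sits at -0.08.

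Of 17 carriers known from phagocytes, Slc40a1 and Slc11a1 among them, 7 were measured members. Limma called 3 of them higher (Slc7a7, Slc7a8 and Slc46a3) and 1 lower (Slc11a2), against 3.65% and 5.94% of all genes. The median of the 7 was 1.09, and it includes Slc7a8 and Slc15a3, which were measured in deficient cells alone. The direction of these genes follows from the filter. The list was drawn up with earlier results of these data known. Slc46a3 encodes a carrier of the lysosomal membrane. Its log2 signal was 11.72 and 12.50 in deficient and 10.87 and 10.76 in wild-type cells (ratios 0.86 and 1.74, mean 1.30 ± 0.62, adjusted p = 0.027). The lysosomal nucleoside carrier Slc29a3 stood at 1.82 and 0.35 (mean 1.09 ± 1.03, adjusted p = 0.0799), and was called higher under 2 of the alternatives. The peptide and histidine carriers of endosomes and lysosomes, Slc15a3 and Slc15a4, were not called. Slc15a3 was at least 1.41-fold higher in deficient cells, and Slc15a4 stood at -0.03 and 1.03 (mean 0.50 ± 0.75). Summed over the 7 genes, the signal was 12456 to 14185 in deficient and 5031 to 6119 in wild-type cells, in the samples where the summed macrophage markers were 328167 to 331854 and 40926 to 56803.

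Slc11a2 encodes DMT1, which imports ferrous iron. Its brightest probe stood at -2.73 on replicate 1 and -0.30 on replicate 2 (mean -1.51 ± 1.72, adjusted p = 0.00691), and the call rests on replicate 1. This probe had a deficient signal well above background on 1 of 2 arrays, so the side of the call follows from the filter. A second probe of the same transcript, with both channels well above background on both arrays, gave -0.20 and -0.01 (mean -0.10). The probes therefore disagree on the size of the difference. Of the other zinc, copper, magnesium and metal carriers, 11 in number, 0 were called by limma (also 0 at unadjusted p under 0.05). Their values ran from -0.67 ± 0.44 for the zinc importer Slc39a6 to 0.78 ± 0.51 for Slc39a5.

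Among ion carriers, 15 were measured, 1 was higher and 2 were lower, with a median of -0.46 (-0.78 on replicate 1 and 0.15 on replicate 2). The lower gene Slc12a7 encodes the potassium chloride cotransporter KCC4. It had a log2 signal of 12.40 and 12.59 in wild-type and 10.77 and 11.30 in deficient cells. The ratios of -1.63 and -1.28 gave a mean of -1.46 ± 0.24, or 2.74-fold more in wild-type cells (adjusted p = 0.0104). It was the 1 lower member with both channels well above background on both arrays. Another cotransporter of this kind, Slc12a4 (KCC1), had no deficient signal well above background, and its wild-type signal was at least 1.47-fold higher (adjusted p = 0.459). The direction of Slc12a4 follows from the filter.

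Slc6a19 and Slc12a7, both lower, lie beside each other, but Slc6a19 was measured in wild-type cells alone and its direction follows from the filter. Their probes are 135 kb apart on chromosome 13 (mm8), and 0 protein-coding genes separate them in GRCm38.p6. The 250 bases before the most upstream listed start are given for Slc12a7 (chr13:73763410-73763659, plus strand) and for the choline carrier Slc44a2 (chr9:21320469-21320718, plus strand). The former was the lower gene measured in both groups on both arrays, and the latter had the lowest ratio. Capitals mark the same motifs as above.
Slc12a7: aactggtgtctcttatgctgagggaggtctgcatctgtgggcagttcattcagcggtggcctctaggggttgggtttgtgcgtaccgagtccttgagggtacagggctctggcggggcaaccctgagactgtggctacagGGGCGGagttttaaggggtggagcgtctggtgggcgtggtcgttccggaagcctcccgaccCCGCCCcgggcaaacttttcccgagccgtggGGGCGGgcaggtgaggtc
Slc44a2: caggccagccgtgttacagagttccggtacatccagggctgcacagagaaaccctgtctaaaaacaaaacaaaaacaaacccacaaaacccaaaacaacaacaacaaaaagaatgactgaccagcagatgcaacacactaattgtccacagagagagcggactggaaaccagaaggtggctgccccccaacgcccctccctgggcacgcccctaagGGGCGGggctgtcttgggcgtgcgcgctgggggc
The Slc12a7 window holds 3 GC boxes and the Slc44a2 window 1. Of 7 lower members with an entry 5 hold a GC box, and of 4 higher members 2 do.

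The higher ion carrier was Slc8a3, which encodes the sodium calcium exchanger NCX3. The log2 signal of Slc8a3 was 10.99 and 9.82 in deficient and 9.10 and 9.12 in wild-type cells. The ratio was 1.89 and 0.69 (mean 1.29 ± 0.85, adjusted p = 0.0276), and replicate 2 alone is within the call limit.

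Slc44a2, a choline transporter-like protein, was the lowest member. Log2 signals were 10.71 and 10.53 in wild-type and 8.44 and 9.48 in deficient cells. In deficient cells it was well above background on 1 of 2 arrays, so the side of its call follows from the filter. The ratio was -2.27 and -1.05 (mean -1.66 ± 0.86, adjusted p = 0.00252), and a second probe gave -1.87 and -0.89 (mean -1.38). It belongs to a group of 8 carriers of vitamins, choline, urea, fatty acids and other substrates, of which 1 was higher (Slc46a3) and 1 lower, with a median of -0.67. The thiamine carrier Slc19a2 (-0.90 ± 0.92), with a deficient signal well above background on 1 of 2 arrays, was not called.

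Genes of the Slc25 family, most of which encode carriers of the mitochondrial inner membrane, were the largest group and lay mostly near 0. Of 26 measured members limma called 0 higher and 1 lower (0 and 2 at an unadjusted p under 0.05), with a median of 0.04, and 20 of 26 had a mean within 0.5 of 0. The ADP/ATP carriers Slc25a4 (0.15 ± 0.22) and Slc25a5 (0.20 ± 0.10), the phosphate carrier Slc25a3 (-0.18 ± 0.99), the citrate carrier Slc25a1 (-0.07 ± 0.81) and the oxoglutarate carrier Slc25a11 (0.34 ± 0.02) were not called. The lower member, Slc25a30, had no deficient signal well above background, so its direction follows from the filter. It measured 9.47 and 9.38 in wild-type and 7.78 and 8.29 in deficient cells, at least 2.62-fold more in wild type (adjusted p = 0.016). Another measured probe gave -1.75, and a probe that missed the filter gave -0.09.

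Golgi and endoplasmic reticulum carriers of nucleotide sugars (Slc35) held 1 lower gene of 13, with 0 higher in limma (0 also at an unadjusted p under 0.05) and a median of 0.05. That gene, Slc35b3, encodes a carrier of the sulphate donor PAPS. It measured 10.85 and 10.72 (log2 signal) in wild-type and 9.23 and 9.74 in deficient cells (mean ratio -1.30 ± 0.46, adjusted p = 0.027). In deficient cells it was well above background on 1 of 2 arrays, so the side of its call follows from the filter. Slc35b2, which carries the same donor, stood at 0.63 and 0.76 (mean 0.70 ± 0.09, adjusted p = 0.324).

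The remaining groups of carriers held no call. Among 11 sugar carriers limma called 0 (0 higher and 2 lower at an unadjusted p under 0.05), with a median of 0.07. Among 9 organic ion and bile acid carriers it called 0 (0 at an unadjusted p under 0.05), with Slc22a18 at least 1.75-fold higher in deficient cells (adjusted p = 0.237) and Slc22a8 nearest to 0 (-0.05 ± 0.36). Among 3 peptide carriers it called 0 (0 at an unadjusted p under 0.05), with means between 0.45 (Slc15a2) and 0.50 (Slc15a4). Slc22a18 and Slc15a3 were measured in deficient cells alone, so their direction follows from the filter. Slc15a2 had a wild-type signal well above background on 1 of 2 arrays, and a brighter probe that missed the filter gave -0.27. Of 3 nucleoside carriers limma called 0 (1 higher and 1 lower at an unadjusted p under 0.05). Slc28a2, which concentrates purine nucleosides with sodium, stood at -1.26 and -0.88 (mean -1.07 ± 0.27, adjusted p = 0.0854), and was called lower under 3 of the alternatives. Of 4 monocarboxylate carriers it called 0 (1 higher at an unadjusted p under 0.05), and Slc16a9 was at least 1.96-fold higher in deficient cells (adjusted p = 0.133). Slc16a9 too was measured in deficient cells alone, so its direction follows from the filter. Of the 4 genes that are not carriers, Slc7a6os, which lies beside Slc7a6, was lower (-1.99 and -0.40, at least 2.29-fold more in wild type, adjusted p = 0.0463). It was measured in wild-type cells alone, so its direction follows from the filter.

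**Figure D4:**
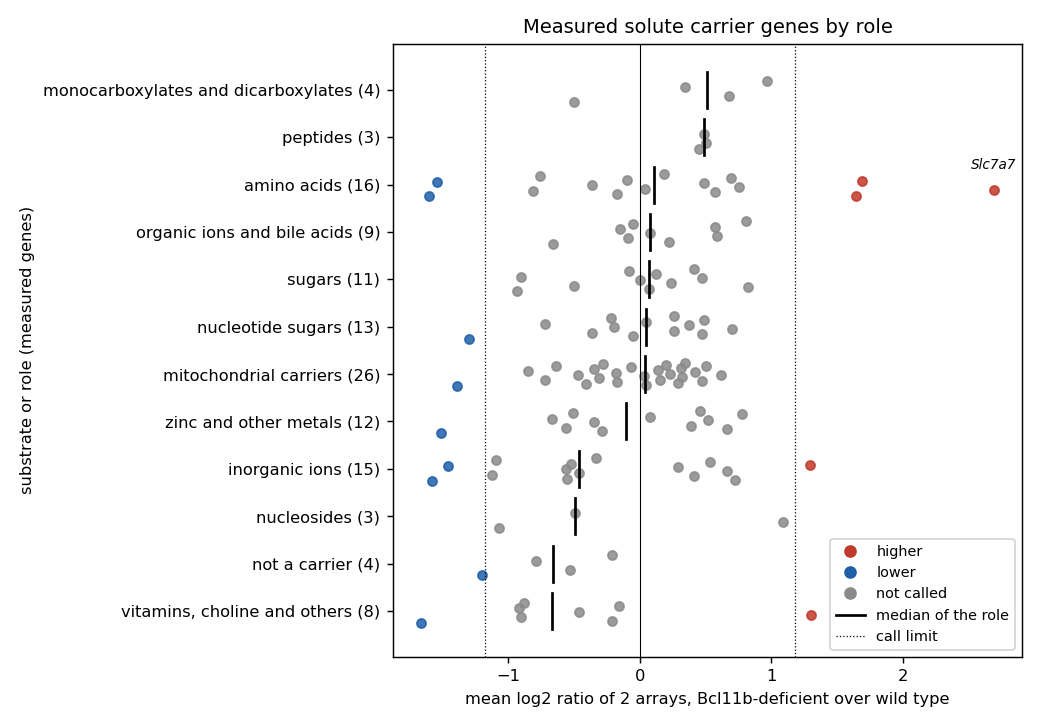
Mean log2 ratio of 2 arrays (x axis) for each of the 124 measured genes by role (y axis, number of genes in brackets), with red for higher, blue for lower, grey for not called, a black bar at each median and dotted lines at 1.18 in either direction. The Slc25 family, drawn as mitochondrial carriers, has a median of 0.04, with 20 of 26 means within 0.5 of 0 and Slc25a30 the lowest. Slc7a7 among the amino acid carriers lies farthest out at 2.69.

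Proteins that serve the carriers were measured beside them. Of 13 partner chains and pumps limma called 0 (0 higher and 2 lower at an unadjusted p under 0.05; median -0.22). Basigin, Bsg, the partner chain of Slc16a1 and Slc16a3, stood at -0.35 ± 0.29 and Txnip, which promotes the uptake of glucose carriers from the surface, at -1.06 ± 0.80. Of 21 genes that relay amino acid supply to mTORC1 limma called 0 (1 higher and 0 lower at an unadjusted p under 0.05; median -0.06). Of 8 regulators of carrier genes 1 was lower: Myc, a transcription factor that drives carrier genes in activated T cells, stood at -1.72 and -1.42 (mean -1.57 ± 0.21, adjusted p = 0.00476). Hif1a (-0.71 ± 0.91) and Atf4 (-0.09 ± 0.25) did not pass. CD8 T-cell markers, at a median of -1.14, were lower in the same samples.

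Different probes of a gene did not always give the same value. Of 18 members with more than 1 measured probe, 12 had all of them on 1 side of 0. The widest spread was that of Slc16a1, whose brightest probe gave 0.34, while another, without a deficient signal well above background, gave -2.14 and -1.45 (mean -1.79). For Slc38a1 the brightest probe stood at -0.10, and the 4 others measured lay between -1.40 and -0.58. For Slc20a1 the 2 measured probes gave -0.56 and 0.34, and for Slc38a2 the measured probes gave -0.81, -0.52 and 0.01. The values of Slc16a1, Slc38a1, Slc20a1 and Slc38a2 given above thus depend on the probe. Of the 14 called members, 11 had 1 measured probe and no such check. Probes of called members that missed the filter gave means of 0.25 for Slc43a2, 0.36 for Slc8a3 and 0.02 for Slc11a2. Those of Slc6a6, Slc35b3 and Slc25a30 gave -0.03, -0.03 and -0.09.

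**Figure D5:**
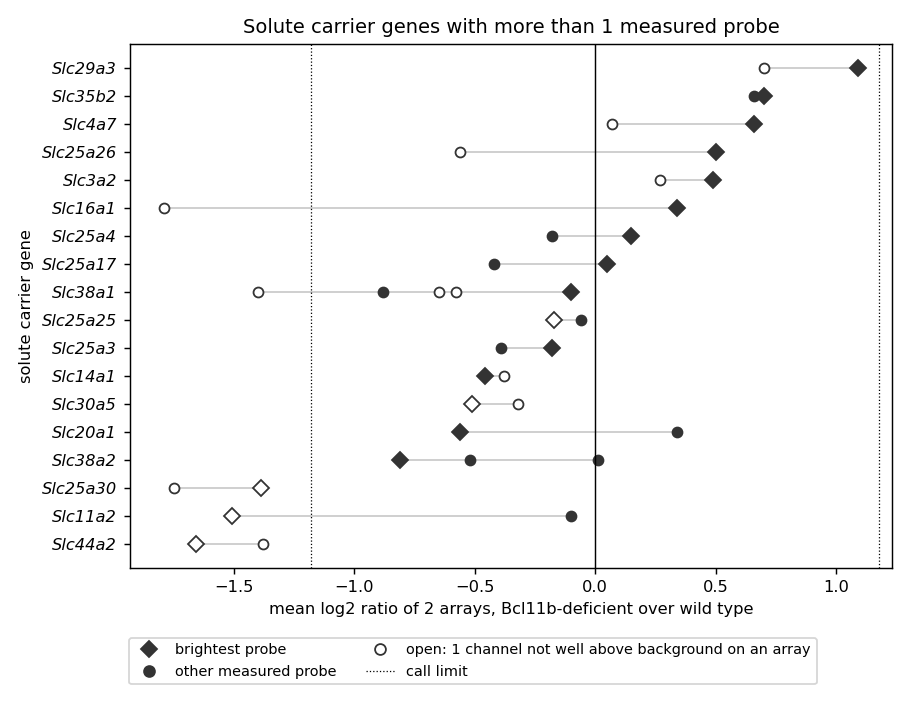
Mean log2 ratio of deficient over wild type (x axis) for each measured probe of the 18 members with more than 1 (y axis), with diamonds for the brightest probe, circles for the others, and open symbols where a channel was not well above background on an array. Slc16a1 spans 0.34 to -1.79, and both probes of Slc44a2 lie beyond the dotted limit at -1.18.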

How the data were processed

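RNA was linearly amplified and labelled chemically with dye, per the labels' protocols. Per the file headers, the deposited scanner files hold spot intensity values made with Agilent Feature Extraction 9.5.3.1, with the mean signal and local background of each channel, flags for outliers and for spots well above background, and a log10 ratio of Cy5 over Cy3. The value table deposited by the authors repeats the same log10 values (largest difference 0.00500). Both arrays lie on 1 slide, so a batch could not be tested. The ratio's direction is deficient over wild type.

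Background was corrected with normexp (offset 50), loess was applied to the ratios of each array, outlier spots were left out and duplicate spots averaged. Log2 ratios were tested against 0 over all 9954 genes with limma 3.58.1 in R 4.3.3 (two-sided, Benjamini-Hochberg, threshold 0.05). With 2 arrays there is 1 residual degree of freedom, and the prior variance of 0.350 had infinite weight. The number of arrays limits the precision. Probes were named through RefSeq's table of GRCm38.p6; 435 of the 525 member probes matched by accession. Probe positions are those of the files (NCBI36, mm8).

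Members and lists were chosen with earlier results of these data known. Named genes are up to 15 called in each direction with 1 sign on both arrays, all measured carriers of activated T cells, and, in roles not reached, the smallest adjusted p and the ratio nearest 0; other genes named were chosen after their values were seen. Some genes that these counts include are not reported here by name. Alternatives are given in the closing section.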

Additional observations from a re-analysis of the deposited data

How the results depend on the processing

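Over 12 alternatives with a test, 0 of the 14 called members changed sign, and 6 of the 16 other named genes did. Counts moved more. With the Feature Extraction ratios, and equally with the deposited value table, 1 member was higher and 2 were lower. Without background correction 3 were lower (4 higher). With median centring in place of loess 1 was higher and 4 were lower, and the members' median was -0.25, beside -0.40 for all genes. With arrays centred on the genes' median 6 were higher and 8 lower (median 0.09). With a filter on both channels 5 of 68 members were higher and 3 lower (median 0.14). Of these, 4 and 1 were shared with the calls given above. Calls gained there were Slc29a3 (higher), Slc19a1 (adjusted p = 0.0274) and Slc28a2 (both lower). Slc28a2 was also called with median centring and with an intensity trend, Slc29a3 with arrays centred on the genes' median, and Slc4a9 (lower) with an intensity trend. Without a filter on dim probes, 0 were higher and 0 lower in limma (29 and 29 at an unadjusted p under 0.05). With separate channels these counts were also 0 and 0 (9 and 15 at an unadjusted p under 0.05). The causes were not tested. Leaving out 1 array leaves no test. Members past -1.18 then numbered 3 (replicate 2 alone) to 20 (replicate 1 alone), and the median ran from -0.07 to 0.11. Slc7a7 passed in 10 of 12 alternatives, Slc12a7 in 8 of 12 (-2.26 to -1.28) and Slc43a2 in 8 of 11 (-3.33 to -0.89). Slc6a6 passed in 7 of 12 (0.93 to 1.81), and Slc11a2 (-2.32 to -0.10) in 4 of 12, the fewest shared with Slc7a6os (4 of 11). Among genes not called, median centring in place of loess turned Slc3a2 to -0.40, Slc16a1 to -0.25 and Slc22a8 to 0.06. Centring on the genes' median turned Slc2a1 to 0.04, Slc38a1 to 0.01 and Slc22a8 to 0.06. The mean of a gene's probes turned Slc16a1 to -0.73, leaving out the filter turned Slc15a2 to -0.27, and Slc22a8 went to 0.14 with the Feature Extraction ratios and the value table and to 0.00 without background correction. Each array holds both genotypes, so the log2 ratio tested is already a difference within an array.

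Negative control spots were brighter in Cy5 (deficient; medians of 968 and 707) than in Cy3 (326.5 and 406), with local background medians of 47 and 37.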

Other observations

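Another 37 genes carry an Slc name today but had a different name on the array, and they lie outside the members above. Of these, 19 were measured, and limma called 3 lower and 0 higher, against 5.94% and 3.65% of all genes. All 3 passed the filter through wild-type cells alone, so the side of their calls follows from the filter, as for the members. Those named here were chosen after their values were seen. Slc17a9, which loads ATP into vesicles, stood at -2.19 and -1.35 (mean -1.77 ± 0.60, adjusted p = 0.00101), with a deficient signal well above background on 1 of 2 arrays. Slc35g1, without a deficient signal well above background, stood at -1.62 and -1.75 (adjusted p = 0.00205). Slc35e2, with a deficient signal well above background on 1 of 2 arrays, had a mean of -1.31 ± 0.98 (adjusted p = 0.0254). The haem carrier Slc48a1 (0.36 and 1.77, mean 1.07 ± 1.00, adjusted p = 0.0886) and the SWEET-type sugar carrier Slc50a1 (-1.50 and -0.65) were not called.

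The members left out by name, Slc40a1, the iron exporter ferroportin (2.52 and 3.40), Slc11a1, the phagosomal metal carrier NRAMP1 (0.74 and 2.67), and Slc4a1, the anion exchanger of red cells (0.38 and 2.58), were higher in deficient cells (adjusted p = 7.30e-10, 0.00174 and 0.00882 in limma).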
